A study of Mus musculus with 14 samples.

Results

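Expression of 10 subunit genes of voltage-gated calcium channels was examined in 7 neuron types from the medial vestibular nucleus of the mouse, which processes signals of head motion in the brainstem. The genes, chosen by symbol in the platform annotation, were Cacna1a, Cacna1b, Cacna1c, Cacna1d, Cacna1e, Cacna1g, Cacna2d1, Cacna2d2, Cacna2d3 and Cacnb4. Of these 10 genes, 9 had probe sets in the table, 17 probe sets in all among 30843. No probe set was annotated to Cacna1g, a pore subunit of low-voltage-activated channels, and it was not analysed here.

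The study pooled amplified cDNA of single neurons by type, and 14 Affymetrix arrays read 2 technical replicates of each of 7 pools. The pools were E1 and E2, classed as excitatory, and I2, I1a, I1b, I3a and I3b, classed as inhibitory. The cells came from 3 reporter lines on the C57BL/6 background, YFP-16 (Thy1 regulatory sequence), GIN (Gad1) and GlyT2-13 (Slc6a5), at 24 to 32 days after birth. Which lines gave the cells of a given pool, and how many cells it held, is not given in the sources used here. Cells had been assigned to types partly by ion channel genes, so levels of channel genes may not be independent of the types, and a calcium channel gene may have been among those used.

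Values are log2 signals, in which 1 unit is a doubling of signal. The lowest value on the arrays was 2.39, and between 15.1% and 16.4% of probe sets on an array reached 5, the level used to keep a gene for testing. Of 16244 genes, 4409 were kept because at least 1 pool had a mean of 5 or more, and 5 of the 9 measured channel genes were among them. Cacna1e passed only through the I3a pool and Cacna2d3 only through I1b, so contrasts of those pools helped to admit the genes, and counts of calls over the 5 are descriptions. Arrays of the same pool correlated across kept genes at r = 0.981 to 0.992, with genes not independent replicates. The glutamate transporter gene Slc17a6 gave 3 of the 5 inhibitory pools a level above 5, namely I1b with 10.48, I1a with 8.60 and I3a with 6.93. It was low in I2 (3.11) and I3b (3.19), while Gad1, a GABA synthesis enzyme, was at least 6.80 in every pool, the excitatory ones included. All 4 measured neuronal markers were at 5 or above in every pool. Among markers of other cells, all 4 of microglia and all 3 of endothelial cells stayed below 3 in every pool, and so did both Purkinje cell markers. Of 6 astrocyte markers, 4 including Gfap stayed below 3, Gja1 reached 4.19 in I3a and at most 2.66 elsewhere, and S100b read 5.24 to 9.02. Of 5 oligodendrocyte markers, Mbp, a myelin gene, reached 6.20 in I3a and 5.50 in I1b, and the other 4 stayed below 3. Of 3 granule cell markers, Neurod1 read 3.11 in I2 to 8.44 in I3b, and Gabra6 and Slc17a7 stayed below 3.

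A voltage-gated calcium channel opens when the membrane depolarises and lets calcium in, which triggers transmitter release and activates calcium-dependent potassium channels and enzymes. Its pore is an alpha1 subunit encoded by a Cacna1 gene. Cacna1a encodes P/Q-type, Cacna1b N-type, Cacna1e R-type, and Cacna1c and Cacna1d L-type pores. A cytoplasmic beta subunit such as that of Cacnb4 and an extracellular alpha2delta subunit, from a Cacna2d gene, bring high-voltage-activated pores to the membrane and set their gating. Cacna2d1 and Cacna2d2 proteins bind the drug gabapentin.

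Among the channel genes measured, the 3 alpha2delta genes had the widest ranges of pool means. For that reason the 250 bases before a promoter start site listed for each are shown. These sites differ from the starts of the gene spans used here. The Cacna2d1 window lies inside its span, which begins at 15934264. The Cacna2d3 window lies inside its minus-strand span, which ends at 29722775. The Cacna2d2 window includes its gene start, 107399733. The sequences are from RefSeq on GRCm38.p6, 5′ to 3′ on the gene's strand, with capitals marking the GC box GGGCGG or its reverse complement CCGCCC. Adjoining matches can overlap.
Cacna2d1, chr5:15934441-15934690, plus strand: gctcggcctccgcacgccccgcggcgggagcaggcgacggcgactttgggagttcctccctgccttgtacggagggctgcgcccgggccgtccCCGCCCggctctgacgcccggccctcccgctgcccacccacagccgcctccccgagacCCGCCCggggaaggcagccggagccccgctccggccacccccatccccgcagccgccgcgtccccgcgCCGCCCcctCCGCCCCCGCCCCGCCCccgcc
Cacna2d2, chr9:107399630-107399879, plus strand: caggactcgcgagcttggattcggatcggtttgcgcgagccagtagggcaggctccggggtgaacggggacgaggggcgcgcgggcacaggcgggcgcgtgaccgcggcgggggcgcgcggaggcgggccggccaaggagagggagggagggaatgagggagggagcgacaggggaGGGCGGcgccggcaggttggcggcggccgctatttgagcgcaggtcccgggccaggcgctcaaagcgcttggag
Cacna2d3, chr14:29721865-29722114, minus strand: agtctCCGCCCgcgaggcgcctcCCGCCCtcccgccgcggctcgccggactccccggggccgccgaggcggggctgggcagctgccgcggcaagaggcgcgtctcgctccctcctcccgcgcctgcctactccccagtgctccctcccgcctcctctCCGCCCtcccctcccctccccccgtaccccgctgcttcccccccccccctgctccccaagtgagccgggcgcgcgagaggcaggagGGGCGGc

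The GC box occurred 6 times in the Cacna2d1 window, 4 times in that of Cacna2d3 and once in that of Cacna2d2. Over 32851 promoter windows of the same length, 32.7% held at least 1 match on either strand and 16.7% at least 2. The 3 windows were 82.4%, 80.0% and 74.4% G and C in the order Cacna2d1, Cacna2d3 and Cacna2d2, beside a median of 52.4% over all windows. The letters TATAAA and CCAAT, searched on both strands, were in none of the 3 windows, whereas 12.4% and 33.8% of all windows held them. All 3 windows thus lay in GC-rich sequence. The other members with an entry had 1 window for Cacna1b and Cacna1e, 2 for Cacna1d, and 3 for Cacna1c and Cacnb4. A match is a description of the letters only.

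Among pore genes, Cacna1b (Entrez gene 12287, chr2:24603860-24763200 of GRCm38.p6) was above 5 on every array. Its probe set 1460608_at read, for E1 arrays 8.32 and 8.30, E2 arrays 8.48 and 8.16, I2 arrays 8.24 and 8.12, I1a arrays 8.41 and 8.04, I1b arrays 8.15 and 7.90, I3a arrays 8.63 and 8.94, and I3b arrays 8.89 and 9.02. On this probe set all 4 I3 arrays lay above the other 10 arrays. The I3 pools overlapped each other, with a gap of 0.18 beside a technical standard deviation of 0.18. From I3a down to E2 the gap was 0.46, with no overlap, and the 5 pools from E2 to I1b overlapped with each neighbour. A second Cacna1b probe set, 1436602_x_at, gave pool means of 7.42 in I1b to 8.29 in I3b, but there the first I3a array, at 7.68, lay below the second E1 array, at 7.73. Over the 7 pools the Cacna1b probe sets correlated at r = 0.965 and rho = 0.929, on arrays they share.

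Cacna1a, which encodes the pore of P/Q-type channels at many fast synapses, stayed under 4 on every array in all 3 of its probe sets. The probe set with the highest mean read 2.98 in I3a to 3.48 in I1b, and 5 of 14 arrays showed the same value of 3.06, which resembles a baseline for that probe set. The other Cacna1a probe sets read between 2.39 and 3.12. At this signal no difference among pools was detectable, and a level under 5 does not show that the transcript is absent.

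Both L-type genes were also under the filter. Cacna1c read 3.43 to 4.69 over the 14 arrays, with pool means of 3.53 in I3b to 4.52 in I1b. Cacna1d read 3.85 and 4.67 in I2, and 2.996 to 3.69 on the arrays of the other 6 pools. The I2 arrays were both above all others, but 6 of the 14 arrays stood at 3.49 and the technical standard deviation was 0.28. For the R-type gene Cacna1e, probe set 1436260_at read 4.48 and 5.86 in I3a, against 4.23 and 3.87 in I3b. The other 10 arrays lay between 3.89 and 4.64, so 1 of the 14 arrays exceeded 5 and carried the gene past the filter. The second Cacna1e probe set did not exceed 2.50 on any array.

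Cacnb4, whose product is a beta subunit abundant in cerebellum and brainstem and lost in the lethargic mouse, exceeded 5 on every array. It read, for E1 arrays 6.54 and 6.60, E2 arrays 6.18 and 5.69, I2 arrays 5.66 and 5.26, I1a arrays 6.51 and 6.15, I1b arrays 6.69 and 6.65, I3a arrays 6.12 and 5.63, and I3b arrays 6.19 and 6.36. I1b was highest with a mean of 6.67 and I2 lowest with 5.46. Most neighbours in the order differed by less than or about the technical standard deviation of 0.24, and the widest gap between neighbours was 0.42, from I3a to I2, with overlapping arrays.

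The alpha2delta genes differed most among the pools. Cacna2d2, which encodes the subunit lost in the ducky mouse and known from Purkinje cells, read, for E1 arrays 5.36 and 5.13, E2 arrays 5.31 and 4.32, I2 arrays 6.17 and 6.42, I1a arrays 4.77 and 5.17, I1b arrays 5.03 and 5.32, I3a arrays 6.19 and 6.39, and I3b arrays 6.45 and 6.73. The 6 arrays of I2, I3a and I3b were all above the 8 arrays of E1, E2, I1a and I1b, with a gap of 1.04 between I3a and E1 as the neighbouring pools. Within the upper 3 and the lower 4 pools, neighbours differed by at most 0.30, below the technical standard deviation of 0.32. The Purkinje markers Pcp2 and Calb1 stayed below 3 in every pool. The other Cacna2d2 probe set, 1426185_at, did not exceed 2.56 on any array.

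Cacna2d3 showed the widest range of the 9 genes, 3.01 log2 units between pool means. It read, for E1 arrays 4.64 and 4.62, E2 arrays 4.27 and 4.57, I2 arrays 4.86 and 5.07, I1a arrays 3.63 and 3.58, I1b arrays 5.38 and 5.64, I3a arrays 2.39 and 2.998, and I3b arrays 2.39 and 2.62. Both I3 pools lay at or near the lowest value of the arrays, so differences from them have only a bound on that side. Of the neighbours in the order I1b, I2, E1, E2, I1a, I3a and I3b, I3a and I3b had overlapping arrays and the other neighbours did not, but the gap of 0.21 from E1 to E2 was within the technical standard deviation of 0.21.

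Cacna2d1, the alpha2delta gene best known from muscle and sensory neurons, did not reach the filter. Its probe set 1433643_at read, for E1 arrays 4.38 and 4.07, E2 arrays 4.42 and 4.78, I1a arrays 3.36 and 3.65, I1b arrays 4.11 and 4.16, and I3a arrays 4.43 and 4.16. All 4 arrays of I2 and I3b showed the same value, 2.49, as the baseline of the probe set, while the lowest of the other 10 arrays was 3.36. The other 3 Cacna2d1 probe sets did not exceed 2.93. The 3 genes thus had different orders over the 7 pools. I3b had the highest Cacna2d2 with Cacna2d1 and Cacna2d3 near the bottom of the scale. In I2 only Cacna2d1 was near the bottom, and in I3a only Cacna2d3. E1, E2, I1a and I1b read above those low levels for all 3 genes. In I1a the means were 3.50 for Cacna2d1, 4.97 for Cacna2d2 and 3.61 for Cacna2d3. Most means of these 4 pools were under 5, and no detection test set them apart from background. In pooled cDNA, fewer cells expressing a gene and less RNA per cell cannot be told apart.

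**Figure D1:**
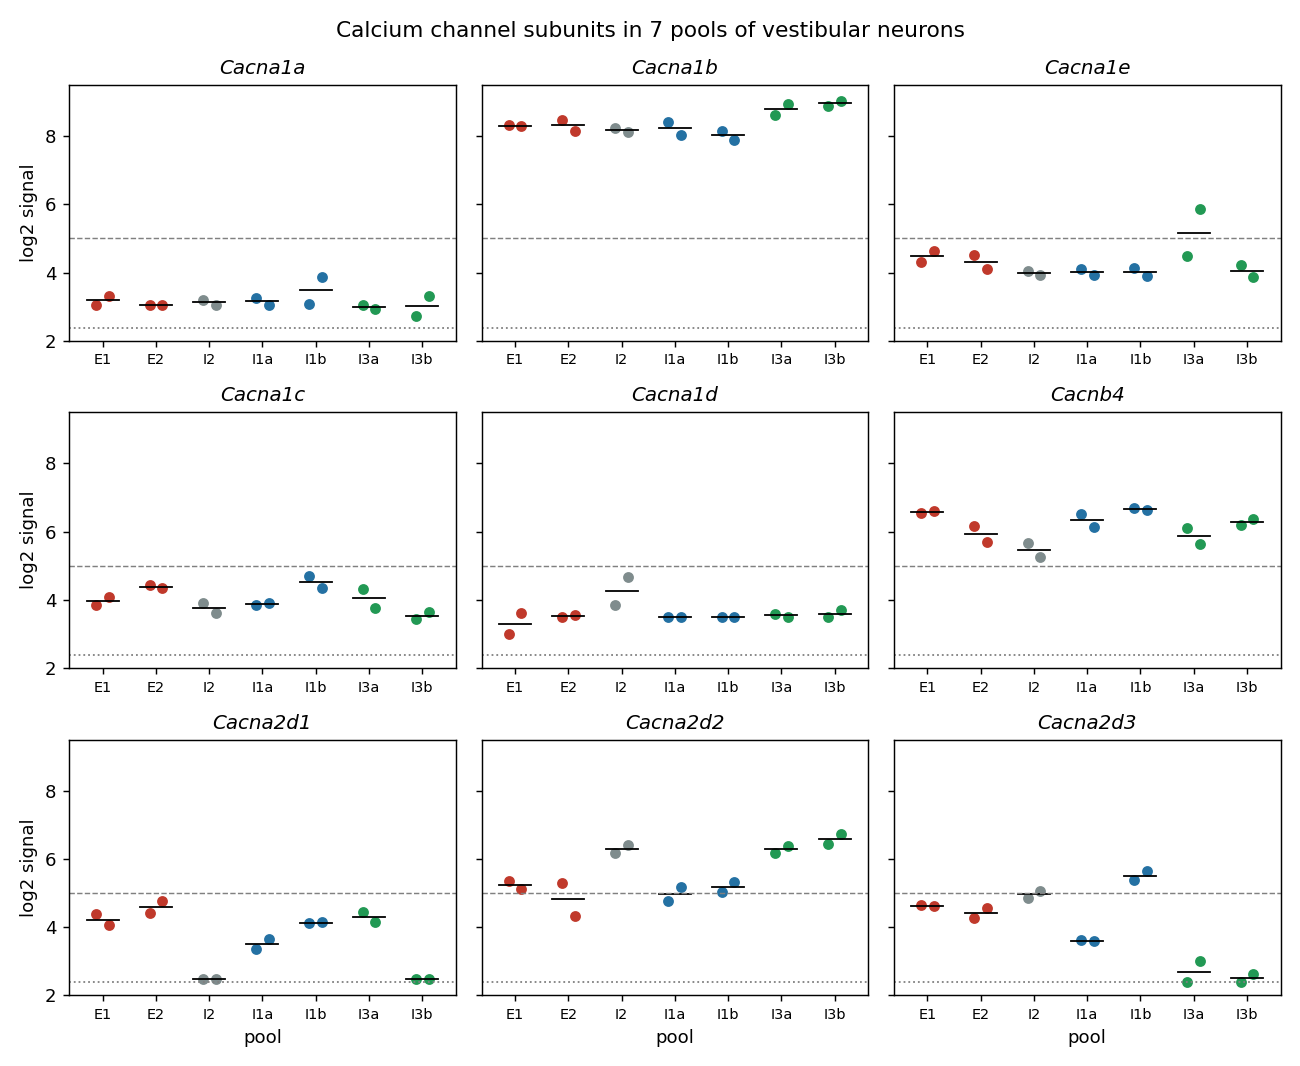
Log2 signal (vertical axis) of the representing probe set of 9 calcium channel genes in each pool (horizontal axis), with a point for each of 2 arrays, a bar for their mean, colours for the E, I2, I1 and I3 families, a dotted line at the lowest value of the arrays and a dashed line at 5. Cacna2d2 is above 6 in I2, I3a and I3b, and Cacna2d3 is near the dotted line in I3a and I3b.

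**Figure D2:**
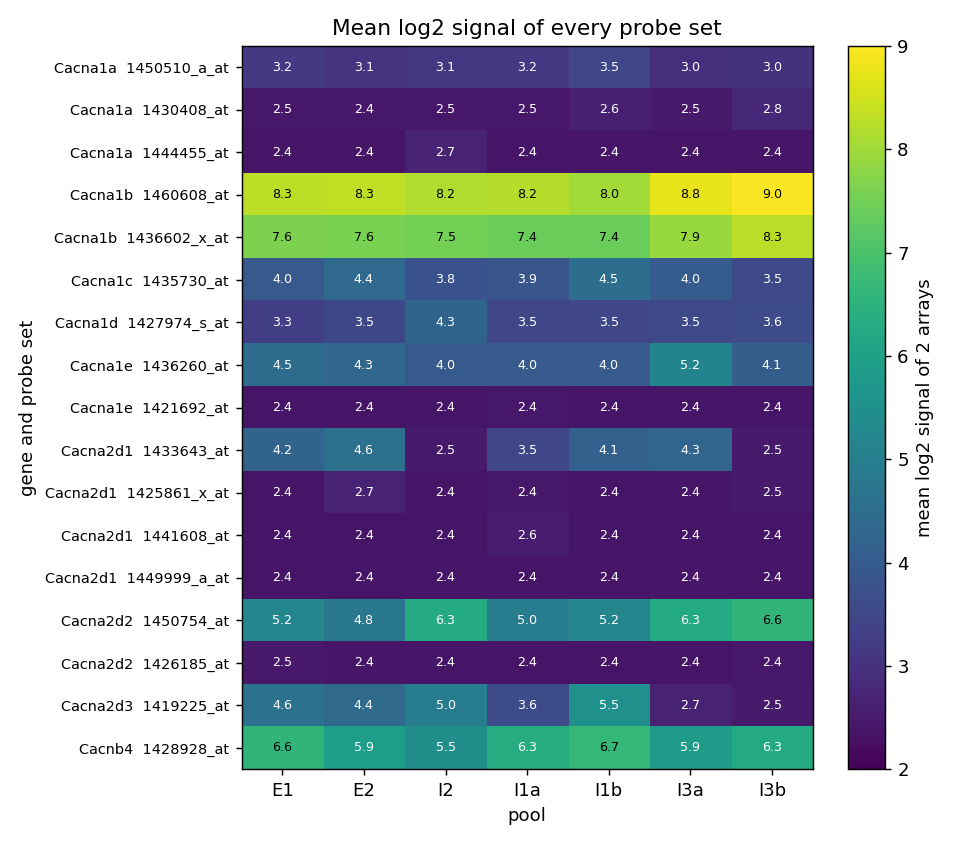
Mean log2 signal of 2 arrays (colour and printed value) for all 17 probe sets of 9 genes (rows) in 7 pools (columns). Rows have different probes and are not to be compared with each other in level; for Cacna1e, Cacna2d1 and Cacna2d2 one probe set carried the signal while the others stayed under 3.

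Whether a gene varied among the 7 pools beyond the error between arrays was tested first, by limma's moderated F test on 14 arrays. The error is technical, so the test compares pools and not cell types. Cacna2d3 (range 3.01, adjusted p 1.11e-06), Cacna2d2 (range 1.78, adjusted p 0.000264) and Cacnb4 (range 1.21, adjusted p 0.00277) were called, which requires an adjusted p under 0.05 and a range of at least 1 log2 unit. Cacna2d3 was in the test only through I1b, the pool that also sets the top of its range. Without the filter it was still called, with an adjusted p of 0.000108 over 16244 genes. The Cacna2d3 call ended with values under 5 set to 5, where its range was 0.511. Cacna1b had an adjusted p of 0.00133 but a range of 0.93, and Cacna1e a range of 1.19 with an adjusted p of 0.0654. Of all 4409 genes 55.2% were called, so 3 of 5 is near the background. The median range of the 5 genes was 1.21, beside 1.13 over all kept genes. Without the filter on low signals Cacna2d1 was called too, with a range of 2.10 (adjusted p 0.00015 over 16244 genes), and 15.9% of those genes were called, but its I2 and I3b arrays all stood at the probe set's baseline.

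Excitatory and inhibitory neurons were compared over 2 E and 5 I pools, with the pool as the replicate. Among kept genes 0.0227% were called by limma, and no calcium channel gene was. None of the 5 had an unadjusted p under 0.05, as 6.19% of kept genes did. Cacna2d2 averaged 5.03 in the E pools and 5.86 in the I pools, a difference of -0.83 (SE 0.49, adjusted p 0.78), which was -1.28 without replicate 1 and -0.385 without replicate 2 of every pool. Its level in the I1 pools overlapped with that of the E pools. Cacna2d3 averaged 4.53 in the E pools and 3.86 in the I pools, a difference of 0.67 (SE 0.87, adjusted p 0.888). Cacna1b, Cacna1e and Cacnb4 differed by -0.12, 0.14 and 0.13. The E and I pools overlapped for all 5 genes, whereas they did not overlap for 12.2% of all genes. The median difference of the 5 genes was 0.13, beside -0.01 over all genes. When I1a, I1b and I3a were dropped for their Slc17a6 signal, an alternative added after seeing the data, the Cacna2d2 difference was -1.41 (adjusted p 0.182), and no channel gene was called.

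Between the I1 and I3 families, Cacna2d3 and Cacnb4 were at higher levels in I1 and the other 3 kept channel genes at lower levels, none of them past the adjusted threshold. Cacna2d3 averaged 4.56 in the 2 I1 pools and 2.60 in the 2 I3 pools, a difference of 1.96 log2 units (SE 0.63, unadjusted p 0.0224, adjusted p 0.375 by limma). Cacna2d2 averaged 5.07 in I1 and 6.44 in I3, a difference of -1.37 (SE 0.27, unadjusted p 0.00245, adjusted p 0.225). Cacna1b averaged 8.13 in I1 and 8.87 in I3, with -0.74 (SE 0.21, unadjusted p 0.0144, adjusted p 0.343). No gene of 4409 passed the threshold (0%), although 11.2% had an unadjusted p under 0.05.

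Cacna1e differed by -0.61 and Cacnb4 by 0.42 between I1 and I3, with adjusted p of 0.655 and 0.68. The Cacna1e difference was -0.0453 without I3a and -1.17 without I3b, and it is also the median of the 5 genes, beside a median of -0.04 over all genes. All 5 genes had pool means that did not overlap, as did 40% of all genes. For Cacnb4 the nearest means, I1a and I3b, were 0.05 apart beside a technical standard deviation of 0.24. For Cacna1e those of I3b and I1b were 0.04 apart beside 0.42, and for both genes the arrays of these pools overlapped. Cacna1e and Cacna2d3 were in the test only through I3a and I1b, pools of this contrast, so this count is a description. An unadjusted p under 0.05 by limma was found for 3 of the 5, beside 11.2% of all kept genes. Of the 3, Cacna2d3 was in the test only through I1b, a pool of this contrast, so the count is a description. Without the filter the adjusted p of Cacna2d3 was 0.81. The size of the Cacna2d3 difference rested on the I1 pools, since it was 1.01 without I1b and 2.91 without I1a, with an adjusted p of 0.413 and 0.182. With values under 5 set to 5 the Cacna2d3 difference was 0.256. Cacna2d1 averaged 3.82 in I1 and 3.40 in I3.

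The single I2 pool was compared with the other 4 I pools in a fit that assumes it varies like the rest. No calcium channel gene was called, where 0.885% of kept genes were. Cacna2d3 averaged 4.96 in I2 and 3.58 in the other I pools, a difference of 1.39 (SE 1.09, adjusted p 0.587) that turned to -0.0923 with values under 5 set to 5. Cacnb4 was at 5.46 in I2 and 6.29 in the others, a difference of -0.83 (SE 0.38, adjusted p 0.356), and I2 lay below all 4. For 52.8% of all genes the I2 pool lay outside the other 4, and 16.2% had an unadjusted p under 0.05. Cacna1b, Cacna1e and Cacna2d2 differed by -0.32, -0.33 and 0.54, within 1 standard error for each gene.

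**Figure D3:**
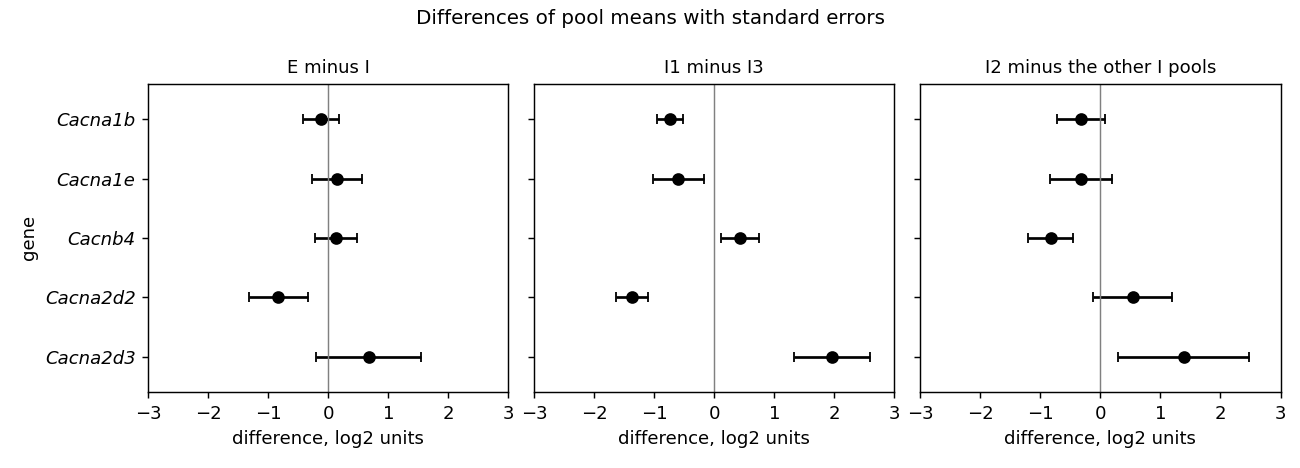
Difference of pool means in log2 units (horizontal axis) with its standard error (bars) for 5 kept genes in 3 comparisons: E minus I (2 and 5 pools), I1 minus I3 (2 and 2 pools) and I2 minus the other I pools (1 and 4 pools). Between I1 and I3, Cacna2d3 lies at 1.96 and Cacna2d2 at -1.37; no difference passed the adjusted threshold.

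Pairs of related types were compared on the arrays, again with technical error only. Between I1a and I1b, Cacna2d3 was the 1 gene of 5 called and was lower in I1a, at 3.61 against 5.51 in I1b, with a difference of -1.91 (SE 0.23, adjusted p 5.38e-05 by limma). Over all genes 13.1% were called, with 9.78% lower in I1a and 3.36% higher, and the median gene differed by -0.22, a shift that array centring brought to 0.02 and the Cacna2d3 difference to -1.66. With values under 5 set to 5 its difference was -0.51 and the call ended. Its place among the tested genes came from I1b alone; without the filter it was still called (adjusted p 0.00103 over 16244 genes, of which 3.55% were called). The other 4 genes differed by -0.34 to 0.20 and were not called. Cacna1b, at 0.20, moved to 0.505 (adjusted p 0.00913) after quantile normalization and 0.443 (adjusted p 0.0347) with arrays centred, and Cacnb4, at -0.34, to -0.104 and -0.0976. The second Cacna1b probe set, as its own feature, gave 0.00556 (adjusted p 0.989), and averaged probe sets gave 0.103.

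Between I3a and I3b, Cacna1e averaged 5.17 in I3a and 4.05 in I3b, a difference of 1.12 (SE 0.36). It passed the threshold (adjusted p 0.0321), but the I3a mean is also what admitted the gene to the test, so the call is no support for a difference. In the same comparison 9.91% of all genes were called, 2.99% higher and 6.92% lower. The call rested on the I3a array that read 5.86. Without that array, replicate 2, the difference was 0.43 (adjusted p 0.297). It also ended without I3b replicate 1 (1.30, adjusted p 0.0589), without I3b replicate 2 (0.94, adjusted p 0.173) and without the filter on low signals (adjusted p 0.185). Beside it, 1 of the 5 measured oligodendrocyte markers, Mbp, read 6.20 in I3a and 3.43 in I3b, and the list averaged 3.24 in I3a and 2.73 in I3b with the other 4 below 3. The astrocyte marker Gja1 read 4.19 in I3a and 2.41 in I3b, with the list at 3.24 in I3a and 2.90 in I3b and Gfap at the lowest value, and the markers' part in the result was not tested. Cacna2d1, below the filter, was at 4.30 in I3a and 2.49 in I3b, a difference of at least 1.80, since both I3b arrays stood at the probe set's baseline. It was called in the fit of all 16244 genes (adjusted p 0.000602), where 2.58% were called, with no spread between the I3b arrays.

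Between E1 and E2 no channel gene was called, where 7.39% of all genes were, 4.2% higher in E1 and 3.2% lower. Cacnb4 averaged 6.57 in E1 and 5.93 in E2, and its difference of 0.64 (SE 0.22, adjusted p 0.0494) was below 1 log2 unit. Cacna2d2 averaged 5.25 in E1 and 4.82 in E2, a difference of 0.43 (SE 0.28, adjusted p 0.295). The other 3 genes differed by -0.01 to 0.21, so the excitatory pools were alike within about 1 standard error for these.

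Channel genes were also set against each other over the 7 pools, as a description of pools that share arrays and scaling. The strongest r among pairs of kept channel genes was that of Cacna1b and Cacna2d3, which ran opposite, with r = -0.915 and rho = -0.893. The I3 pools had the highest Cacna1b, with Cacna2d3 near the lowest array value, at 2.69 in I3a and 2.50 in I3b. In the other pools Cacna1b means lay between 8.02 and 8.32. Cacna2d2 and Cacna2d3 gave r = -0.527 and rho = -0.286, and Cacna2d2 and Cacna1b r = 0.683 and rho = 0.321. By pattern, the 3 kept genes most like Cacna2d3 were Calr (r = 0.970), which encodes the endoplasmic reticulum calcium-binding chaperone calreticulin, Chordc1 (r = 0.966), a co-chaperone of heat shock protein, and Psmc4 (r = 0.965), a proteasome subunit. Over the pools these 3 varied far less than Cacna2d3, as with Calr at 7.79 in I3a and I3b to 8.39 in I2. Of 4289 genes compared, 40 had an r above 0.9, and 7 points allow many such matches.

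Other calcium channel subunits were represented by 12 of 16 listed genes, and none was kept. Cacng2, which encodes stargazin, an auxiliary subunit of AMPA receptors, read 4.05 to 4.82 over the arrays in its stronger probe set. Cacng7 exceeded 5 on 1 array of I1a, at 5.87, beside 3.86 on the other I1a array. The T-type gene Cacna1h and the L-type gene Cacna1f, as well as the beta gene Cacnb1, did not exceed 3.26 on any array.

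Partners of the channels were examined as 4 further lists, of which 8 of 17 active zone genes, 1 of 8 calcium-activated potassium channel genes, 8 of 19 genes of calcium stores, pumps and exchangers, and 4 of 18 regulators and kinases were kept. None of these 21 genes was called in E against I, in I1 against I3 or in I2 against the other I pools. Their median differences for I1 minus I3 were 0.04 for the active zone, -1.13 for the 1 potassium channel gene, 0.40 for stores and pumps and 0.25 for regulators, beside -0.04 over all genes. In the F test over 7 pools, 5 of 8, 1 of 1, 7 of 8 and 3 of 4 were called, beside 55.2% of all genes.

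Rims2, an active zone protein that tethers calcium channels near vesicles, was higher in E1 than E2 by 1.31 (SE 0.20, adjusted p 0.000534) and in I3a than I3b by 1.70 (SE 0.20, adjusted p 6.42e-05). It was also higher in I1a than I1b, by 1.13. Unc13c, a vesicle priming protein, was lower in I1a than in I1b, with a difference of -2.85, and higher in I3a than in I3b by 1.51. Ppfia2, a liprin scaffold, was lower in I1a than in I1b, with -1.12 at levels under 5 in both. It lost its call under 3 of 11 alternatives, among them with arrays centred and without I1b replicate 1. Kcnn2, the pore of a small-conductance calcium-activated potassium channel, was higher in I1a than in I1b by 1.501 and lower in I3a than in I3b, at -1.05. The Unc13c levels in I3a and I3b, 4.62 and 3.11, were both under 5, and that call ended with values under 5 set to 5, where the difference was 0. The Rims2 call for I1a ended without I1a replicate 2 (0.98) and with values under 5 set to 5, while that of Kcnn2 for I1a ended with values under 5 set to 5 (0.884). The Kcnn2 call for I3a ended after quantile normalization (-0.897), with arrays centred, and without I3a replicate 2 (-0.934). Called genes of the active zone list numbered 1 higher for E1 against E2, 1 higher and 2 lower for I1a against I1b, and 2 higher for I3a against I3b. Over all kept genes 4.2% were higher and 3.2% lower in E1 against E2, 3.36% and 9.78% in I1a against I1b, and 2.99% and 6.92% in I3a against I3b.

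Ryr3, a release channel of calcium stores, differed by -3.76 between I3a and I3b (SE 0.27, adjusted p 1.45e-06), at 3.95 in I3a and 7.72 in I3b, and by -1.88 with its probe sets averaged. It was higher in E1 than in E2, by 1.73, and in I1a than in I1b, by 1.05. Ryr2, another release channel, was higher in E1 than in E2 by 1.62 (adjusted p 0.000613) and lower in I1a than in I1b, with -1.06. The latter call ended under 4 of 13 alternatives, among them without I1a replicate 1 and with arrays centred. Slc24a2, a potassium-dependent sodium and calcium exchanger, ranged from 4.08 in I2 to 9.53 in E2. It was higher in I3a than in I3b by 1.51 and lower in I1a than in I1b, with -1.19. The calls of Ryr3 and Slc24a2 in I1a against I1b ended under some alternatives, Ryr3 without I1b replicate 1 (0.882), without the filter or with probe sets averaged (0.527), and Slc24a2 after quantile normalization (-0.906) or with arrays centred (-0.949). For E1 against E2, Ryr3 lost its call with probe sets averaged (0.863). Of the 8 kept genes of stores, pumps and exchangers, 2 were higher and none lower in E1 against E2, 1 higher and 2 lower in I1a against I1b, and 1 higher and 1 lower in I3a against I3b, beside the shares of all kept genes given for the active zone list.

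**Figure D4:**
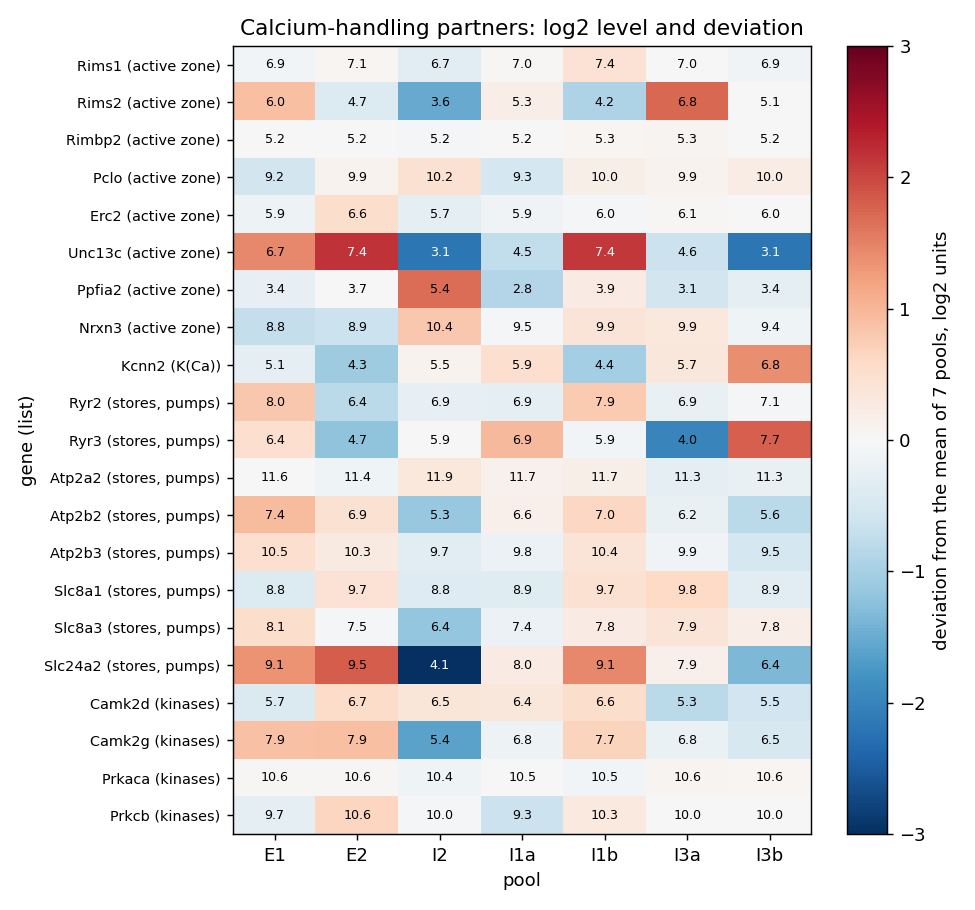
Mean log2 level (printed) and deviation from the gene's mean over 7 pools (colour, log2 units) of 21 kept partner genes (rows, list in brackets) in 7 pools (columns). Slc24a2, Unc13c, Ryr3 and Rims2 vary most, with Slc24a2 at 4.1 in I2 and 9.5 in E2.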

How the data were processed

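Per the submitters' processing notes, the authors used affy and GCRMA to make the deposited log2 signals. GCRMA corrects background by probe sequence, quantile normalizes and gives 1 value per probe set. Versions and log base are not given in the sources used here, and log2 was taken from GCRMA's usual output and the values. Of 30843 probe sets, 24034 had 1 gene symbol, 477 several, 6268 none and 64 were controls. For 16244 genes the brightest 1-symbol probe set, by its mean over arrays, stood for the gene. Arrays have no read depth, and signal over background limits precision.

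Fits used R 4.3.3 and limma 3.58.1 (lmFit, eBayes with trend, Benjamini-Hochberg over 4409 kept genes). A gene was called at an adjusted p under 0.05 and at least 1 log2 unit. E against I, I1 against I3 and I2 against the other I pools used 7 pool means. Pairs of types and the F test used 14 arrays, whose error is technical. Differences are first-named minus second. The technical standard deviation pools the variance between arrays over 7 pools. Fits were tested on simulated data with known changes and normally distributed noise. Changes of 2 log2 units were recovered for 80.6% of changed genes in E against I. The share was 64.2% in I1 against I3 and 70.1% in I2 against the other I pools. In the pairs of types and the F test it was 91% to 100%. False calls were 12 of 188, 3 of 163 and 11 of 176 in the comparisons of pool means, in the same order.

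Members, lists, tests and alternatives were chosen with earlier results of these data known. All members were named, with the 3 kept genes most correlated with each kept member whose pool means ranged over 2 log2 units. Partner genes called in a pair of types were named, and those called only in the F test were counted but not named. Genes named among the subunits below the filter, and marker genes, were picked for description. Figures used matplotlib 3.10.9.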

Additional observations from a re-analysis of the deposited data

Results flagged for a closer look

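Of 9 channel genes examined over the 5 inhibitory pools, 2 had a pool that stood apart by Dixon's criterion. Chance alone meets it in about 1 in 20 groups of normally distributed values. For Cacna1e the I3a pool, at 5.172, was far above the next inhibitory pool, I3b, at 4.052, with a gap of 0.942 of the whole range. Its 2 arrays read 4.48 and 5.86, so the I3a mean rests on 1 array. For Cacna1d the I2 pool stood at 4.26, with the next at 3.59 in I3b and a gap of 0.87 of the range. Its arrays read 3.85 and 4.67, both under the level of 5.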

How the results depend on the processing

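With 1 pool per type, comparisons of families rest on 7 pools, and signals under 5, which several members gave in most pools, were not set apart from background by a detection test. No channel gene was called in E against I, I1 against I3, I2 against the other I pools or E1 against E2 under any alternative run. In I1a against I1b the 1 call, Cacna2d3, became 0 with a filter at 7, which drops the gene, and with values under 5 set to 5. In I3a against I3b the 1 call, Cacna1e, became 0 with a filter at 7 and with probe sets averaged, which both drop the gene. It also became 0 with values under 5 set to 5, and the count was 0 to 1 when single arrays were left out. Without the filter Cacna1e lost its call and Cacna2d1 gained one. The 3 calls of the F test became 0 at a filter of 7, which drops the genes, and that of Cacna2d3 also ended with values under 5 set to 5 (range 0.511). With probe sets averaged 2 calls were left, as the averaged Cacna2d2 fell below the filter. The count was 4 without the filter, without I1b replicate 1 and without I3a replicate 1.

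Counts over all genes moved more. E against I (1 gene) gave 2 without the filter, 2 with a filter at 7, 2 with values under 5 set to 5, 0 without the intensity trend, and 0 to 2 when a replicate or pool was left out. I1 against I3 (0 genes) gave 1 without the filter, 2 with values set to 5 and 1 without the trend. I2 against the other I pools (39) gave 164 without the filter, 0 at 7, 107 with values set to 5, 13 with probe sets averaged and 4 to 53 with a replicate or pool left out. With the pool as a random block on 14 arrays the 3 counts were 6, 114 and 273, and 5, 104 and 255 with the replicate block added. Without I1a, I1b and I3a, E against I gave 7. At a filter of 7, values set to 5 and probe sets averaged in turn, E1 against E2 (326) gave 193, 217 and 187, I1a against I1b (579) gave 304, 358 and 309, and I3a against I3b (437) gave 218, 256 and 246. The F test (2433) gave 1350 at 7 and 1468 with probe sets averaged. The technical replicate numbers did not pair arrays across types (r of deviations -0.12 to 0.21 over 21 pairs of types, 4 above 0.1), and the replicate block gave 327, 579, 436 and 2430 genes for the 3 pairs and the F test, with no change in channel gene calls.

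Signs turned for some uncalled channel genes, among them Cacna2d3 at 0.67 in E against I and 1.39 in I2 against the other I pools. With values set to 5, E against I gave -0.0863 for Cacna1e and -0.109 for Cacna2d3, and I2 gave -0.0923 for Cacna2d3. In I1a against I1b, Cacna1e gave 0.0694 after quantile normalization and 0.239 with arrays centred, and Cacna2d2 0.036 with arrays centred. Cacna1b gave 0.0132 in E1 against E2 with probe sets averaged. With single replicates or pools left out, E against I ran from -0.189 to 0.45 for Cacnb4 and -0.22 to 0.0137 for Cacna1b, and E1 against E2 from -0.175 to 0.151 for Cacna1b, -0.0301 to 0.38 for Cacna1e and -0.0629 to 0.93 for Cacna2d2. Cacna1e ran from -0.12 to 0.118 in I1a against I1b, and Cacna2d3 from -0.115 to 0.50 in I3a against I3b. Where no construction of the alternative shows it, the cause was not tested.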
